A study of Mus musculus with 6 samples.

Results

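The 9 genes described here encode the 3 D cyclins (Ccnd1, Ccnd2 and Ccnd3) and 6 inhibitors of cyclin-dependent kinases (Cdkn1b, Cdkn1c, Cdkn2a, Cdkn2b, Cdkn2c and Cdkn2d). They were chosen by name, as the rows of the count table whose Ensembl identifier carries 1 of these symbols, and all 9 were found among 54232 genes. To find genes that depend on Pbrm1, which encodes a component of the SWI/SNF chromatin remodelers, RNA-Seq had been carried out on oviductal smooth muscle cells in primary culture. The 3 WT and 3 Pbrm1 cKO libraries came from females aged 8 to 12 weeks on day 2 of pregnancy, after enzymatic digestion of the oviduct and some hours of culture in serum. The study's Results define cKO mice, for its work on the uterus, as Pbrm1 fl/fl with PR-IRES-cre/+. A legend uses the name cKO for the oviductal cells as well. With that cross the floxed alleles are cut in cells that express the progesterone receptor gene anywhere in the reproductive tract, not in muscle alone. The labels name the controls WT, while a legend of the study names Pbrm1 fl/fl mice. They do not give the strain or say whether a library is 1 animal or a pool, so p-values here measure the spread between libraries, which may be technical.

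D cyclins are the first cyclins to appear when a resting cell enters the cell cycle. They bind and activate Cdk4 and Cdk6, which phosphorylate the retinoblastoma protein and its relatives and so free E2F factors to drive the genes of DNA replication. The INK4 inhibitors (Cdkn2a to Cdkn2d) bind Cdk4 and Cdk6 and keep the D cyclins off them. The Cip/Kip inhibitors (Cdkn1a, Cdkn1b and Cdkn1c) block cyclin E-Cdk2 complexes, and are themselves held by cyclin D complexes. D cyclins respond to growth factors and serum, which links the cycle of smooth muscle cells to their surroundings.

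Promoter sequences are shown for the members that passed the test and have an entry in the RefSeq promoter table (GRCm38.p6), since these are the stretches from which the counted transcripts start. The table matched 6 of the 9 members. Ccnd3 has 2 start sites there, and its count sums the transcripts of both. Each line gives the 250 bases before a start site, 5′ to 3′, with capitals for matches on either strand to the GC box (GGGCGG), the CCAAT box (CCAAT) and the CRE half-site (TGACGT).
Ccnd3 upstream start, chr17:47504801-47505050, plus strand: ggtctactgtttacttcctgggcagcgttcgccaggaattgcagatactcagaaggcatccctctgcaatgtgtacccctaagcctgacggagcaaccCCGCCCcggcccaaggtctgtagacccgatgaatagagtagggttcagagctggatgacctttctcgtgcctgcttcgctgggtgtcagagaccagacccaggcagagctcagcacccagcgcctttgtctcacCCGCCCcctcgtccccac
Ccnd3 downstream start, chr17:47593217-47593466, plus strand: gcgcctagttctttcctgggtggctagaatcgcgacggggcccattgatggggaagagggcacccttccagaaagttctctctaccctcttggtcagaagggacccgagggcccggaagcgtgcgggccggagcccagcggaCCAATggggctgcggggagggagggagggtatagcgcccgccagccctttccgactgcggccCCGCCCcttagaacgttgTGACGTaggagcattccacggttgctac
Cdkn1b, chr6:134920151-134920400, plus strand: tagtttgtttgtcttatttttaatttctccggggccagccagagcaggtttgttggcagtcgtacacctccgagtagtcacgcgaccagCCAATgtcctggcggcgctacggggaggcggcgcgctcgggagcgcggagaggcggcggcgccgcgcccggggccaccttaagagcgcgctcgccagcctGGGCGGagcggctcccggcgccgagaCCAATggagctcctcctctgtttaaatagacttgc
The window before the upstream Ccnd3 start held 2 GC boxes and neither of the other motifs. The window before the downstream Ccnd3 start held 1 GC box, 1 CCAAT box and 1 CRE half-site, and that of Cdkn1b held 1 GC box and 2 CCAAT boxes. Among 32851 promoter windows of this length, 32.7% held a GC box, 33.8% a CCAAT box and 6.47% a CRE half-site. The E2F letters TTCGCGC (in 1.28% of all windows) and TTGGCGC (in 1.97%, and open to overlap with a reversed CCAAT box) and the E box CACGTG (in 6.02%) matched in none of the 3 windows.

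Libraries held between 15390818 and 18947947 counts, and 3 counts corresponded to 0.158 to 0.195 CPM, counts scaled to a common library size, below which a gene is at the floor of detection; this limit covers counting error only. The targeted gene Pbrm1 was at 170, 183 and 172 CPM in WT and at 43.5, 50.7 and 42.7 CPM in cKO. This was a log2 fold change of -1.94 (SE 0.064, edgeR adjusted p = 9.13e-11), with counts from every exon, so transcripts of a cut allele are included. All 8 smooth muscle markers passed the filter on low counts. Their summed level was 3590 to 3670 CPM in WT and 4550 to 5140 CPM in cKO. All 8 fibroblast, 8 epithelial and 8 endothelial markers passed the same filter, so passing it cannot check the smooth muscle label. The highest WT means among the smooth muscle markers were those of Tagln and Acta2, 1597.55 and 1286.6 CPM. Myh11 had a WT mean of 88.2 CPM, beside 747 CPM for Pdgfra, the highest fibroblast marker. Markers of fibroblasts, leukocytes, epithelium, endothelium and mesothelium were also present, so the libraries hold RNA of several cell types. In such bulk samples, fewer cells of a type and less RNA per cell cannot be told apart.

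Of the 9 members, 8 passed the filter on low counts and Cdkn2a did not. Of these, 3 changed at an edgeR adjusted p under 0.05. Ccnd1 and Cdkn1b were higher and Ccnd3 was lower in cKO, so calls fell on 2 of 3 D cyclins and on 1 of 2 Cip/Kip members. These 3 of 8 (37.5%) stand beside 43.7% of all 15376 genes tested, with 21.9% called higher and 21.8% called lower, so the share of members called was near that of the whole table. In 4 of 8 tested members the libraries of the groups did not overlap, against 53.5% of all genes tested. The median log2 fold change of the tested members was 0.12, beside 0.0016 over all genes tested.

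**Figure D1:**
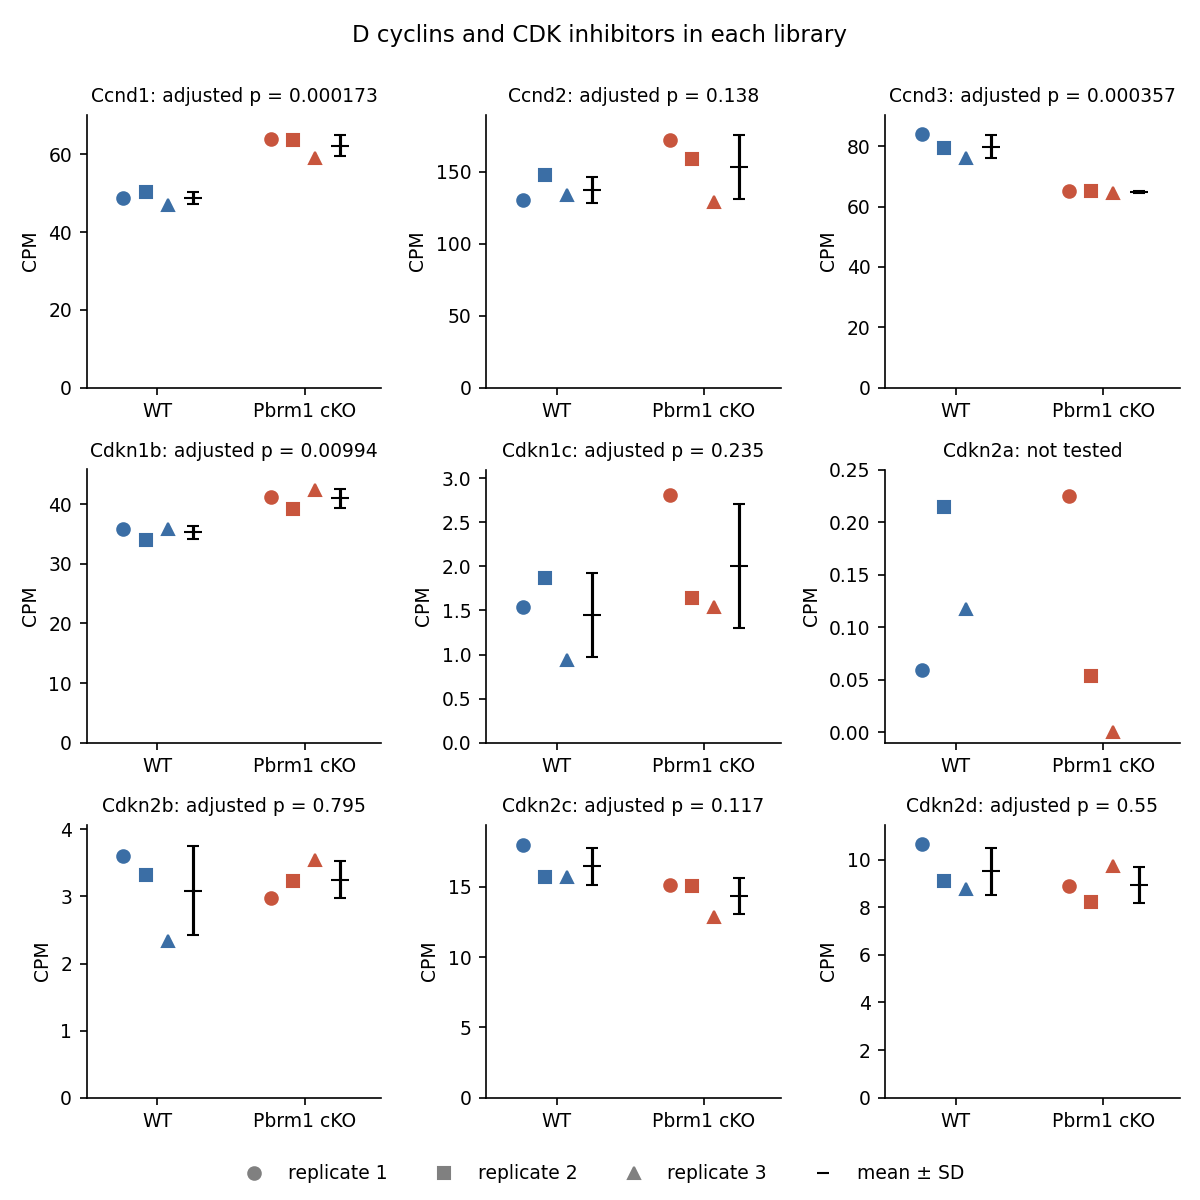
Level of each of the 9 genes in CPM (y axis, each panel with its own scale) in the 3 WT (blue) and 3 Pbrm1 cKO (red) libraries, with the mean ± SD in black (none for Cdkn2a, which lies at the floor); the adjusted p is from edgeR. The groups are separate for Ccnd1, Ccnd3, Cdkn1b and Cdkn2c, and Ccnd2 spreads from 129 to 172 CPM within the cKO group.

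Ccnd1 encodes cyclin D1, the D cyclin best known as a target of growth factor signals. Ccnd1 (ENSMUSG00000070348.5; GRCm38 chromosome 7, 144929931 to 144939925, minus strand) was at 48.8, 50.2 and 47.1 CPM in WT and at 63.9, 63.7 and 59.1 CPM in cKO. All 3 cKO libraries lay above all 3 WT libraries. The mean rose from 48.7 ± 1.57 to 62.2 ± 2.72 CPM (SD, n = 3), or to 128% of WT, a log2 fold change of 0.35 (SE 0.055, edgeR adjusted p = 0.000173). That change was of ordinary size in these cells, since 31.7% of the genes tested changed by more. LTO1, a gene on the opposite strand, shares 1100 exon bases with Ccnd1 and was counted apart by strand, with means of 12.5 ± 0.897 (WT) and 14.5 ± 0.926 (cKO) CPM (SD, n = 3), for a log2 fold change of 0.22 (edgeR adjusted p = 0.0648).

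Ccnd2 encodes cyclin D2, and its libraries were the most spread among the D cyclins. Ccnd2 (ENSMUSG00000000184.12; chromosome 6, 127125162 to 127152193, minus strand) was at 130, 148 and 134 CPM in WT and at 172, 159 and 129 CPM in cKO. Replicates 1 and 2 of cKO lay above every WT library, and replicate 3 lay below all of them. The log2 fold change of 0.16 (95% interval -0.019 to 0.34) did not pass the test (edgeR adjusted p = 0.138). Single cKO libraries moved this value in both directions. Without cKO replicate 1 it was 0.072 on the log2 scale (edgeR adjusted p = 0.538), and without cKO replicate 3 it was 0.27 and passed (edgeR adjusted p = 0.00256). It also passed when no filter on low counts was used (0.15, edgeR adjusted p = 0.0213). The log2 fold change was no larger in that fit, and the SE was 0.053 in place of 0.084. That SE lay below the 0.064 of Ccnd1 in the same fit, although the libraries of Ccnd2 were more spread.

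Ccnd3 encodes cyclin D3, and its direction was opposite to that of Ccnd1. Ccnd3 (ENSMUSG00000034165.16; plus strand of chromosome 17, 47505051 to 47599691) was at 83.9, 79.5 and 76.2 CPM in WT and at 65.1, 65.1 and 64.5 CPM in cKO. The groups did not overlap, and the cKO libraries lay close together. The mean fell from 79.9 ± 3.82 to 64.9 ± 0.333 CPM (SD, n = 3), or to 81.3% of WT, a log2 fold change of -0.30 (SE 0.051, edgeR adjusted p = 0.000357). Of the genes tested, 37.7% changed by more. Bysl, a ribosome assembly gene on the opposite strand that shares 361 exon bases with Ccnd3, was lower as well, with means of 91.0 ± 1.09 (WT) and 75.4 ± 3.51 (cKO) CPM (SD, n = 3), for a log2 fold change of -0.27 (edgeR adjusted p = 0.000612). Reads were assigned by strand, and the part of Bysl in the Ccnd3 value was not tested. The pseudogene Ccnd3-ps matches Ccnd3 over 881 bases at 96.3% identity, and held 14 to 27 counts a library where Ccnd3 held 1003 to 1487.

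To see how the D cyclin transcripts were made up, CPM was divided by transcript length and added over the 3 genes. Per kb of the summed exon length in the table, the total was 33.8, 35.4 and 32.9 CPM per kb in WT and 39.3, 37.8 and 33.6 CPM per kb in cKO. The groups overlapped, and the difference of means, 2.88 CPM per kb, did not exceed the spread (exact permutation test, two-sided, p = 0.3; the smallest p this design allows is 0.1). The share of Ccnd1 in this total was 30.7, 30.1 and 30.4% in WT and 34.6, 35.7 and 37.3% in cKO. The share of Ccnd3 was 28.3, 25.6 and 26.4% in WT and 18.9, 19.6 and 21.9% in cKO. For both shares the groups did not overlap, with differences of 5.47 and -6.63 percentage points (exact permutation test, two-sided, p = 0.1 for each, which is the smallest it can give). The shares are parts of the same total, so these tests are not independent. The test of the Ccnd3 share was not among those planned. The share of Ccnd2 was 42.8% ± 1.66 in WT and 44.0% ± 2.94 in cKO (SD, n = 3; exact permutation test, two-sided, p = 0.6). That difference of 1.16 points became -0.12 without cKO replicate 1 and 2.77 without cKO replicate 3, and the difference of the total, 8.45% of WT, became 4.99% and 13.3%.

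The order of the D cyclins depended on the length used. The summed exon length of Ccnd3, 8775 bases, is far above the 2113 bases of its longest principal transcript, because all annotated forms are joined. Per kb of the longest principal transcript, a choice made after the values were seen, Ccnd3 took the largest share, with 52.1% ± 1.79 in WT and 43.0% ± 2.47 in cKO (SD, n = 3). On that scale the share of Ccnd1 was 17.96% ± 0.146 in WT and 23.3% ± 0.461 in cKO, and the total was 72.5 ± 2.42 and 71.6 ± 4.34 CPM per kb (SD, n = 3). Under both lengths Ccnd1 held a larger and Ccnd3 a smaller share in every cKO library than in any WT library. Each length is the same in every library, so these directions follow from the CPM of the 3 genes and are no separate check. The direction of the total and the order of the 3 genes differed between these lengths.

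**Figure D2:**
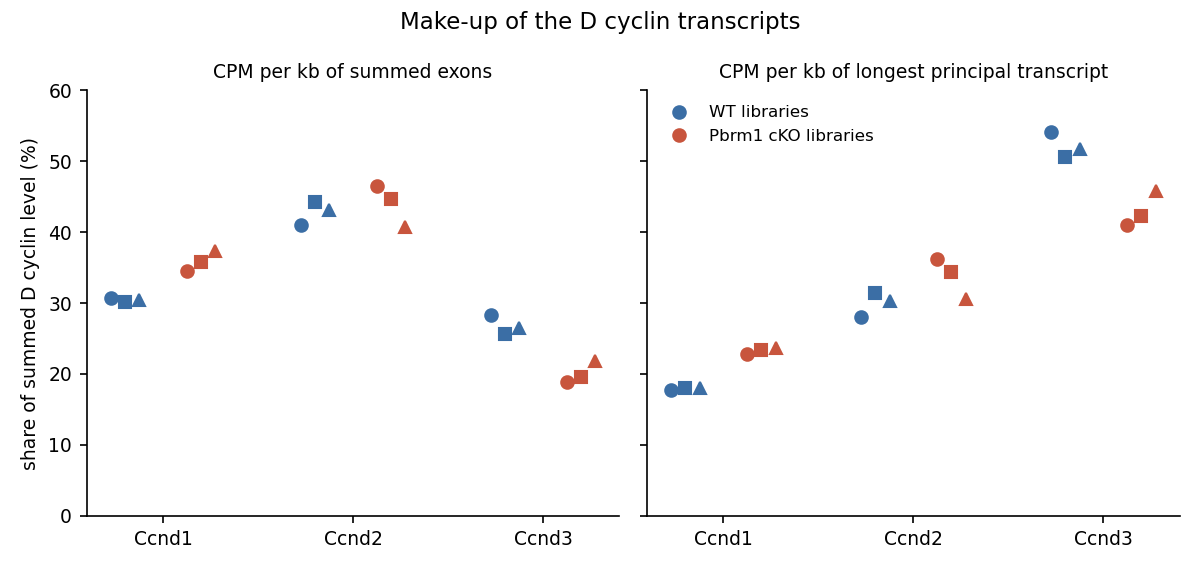
Share of each D cyclin in the summed D cyclin level (y axis, percent) in each library, WT in blue and Pbrm1 cKO in red, with circles, squares and triangles for replicates 1, 2 and 3; the left panel divides CPM by the summed exon length and the right panel by the longest principal transcript. The Ccnd1 share rises from 30.4 to 35.9% on the left and from 17.96 to 23.3% on the right, while the Ccnd3 share is lower in cKO in both panels.

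Cdkn1b encodes p27Kip1, which holds cells in the resting state and is controlled largely by the breakdown of its protein. Cdkn1b (ENSMUSG00000003031.14; plus strand of chromosome 6, 134920401 to 134925513) was at 35.9, 34.1 and 35.9 CPM in WT and at 41.3, 39.3 and 42.3 CPM in cKO. All cKO libraries lay above all WT libraries. The mean rose from 35.3 ± 1.05 to 41.0 ± 1.56 CPM (SD, n = 3), or to 116% of WT, with a log2 fold change of 0.22 (SE 0.060, edgeR adjusted p = 0.00994). Of the genes tested, 50.3% changed by more than Cdkn1b. The call was lost by a narrow margin without WT replicate 2, with a log2 fold change of 0.19 (edgeR adjusted p = 0.0523).

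Cdkn1c encodes p57Kip2, a growth inhibitor expressed from the maternal allele of an imprinted cluster. Cdkn1c (ENSMUSG00000037664.13; chromosome 7, 143458339 to 143461050, minus strand) was at 1.54, 1.87 and 0.937 CPM in WT and at 2.81, 1.64 and 1.54 CPM in cKO, from 16 to 50 counts. The groups overlapped, and cKO replicate 1 alone lay above every WT library. The log2 fold change of 0.46 (95% interval -0.18 to 1.10) did not pass (edgeR adjusted p = 0.235), and the interval is wide at this depth. Without cKO replicate 1 the log2 fold change was 0.13 (edgeR adjusted p = 0.774), and without WT replicate 2 it was 0.70, and 0 of the 6 fits that each omit 1 library passed (edgeR, lowest adjusted p = 0.129).

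In Cdkn1a, the remaining Cip/Kip gene (p21Cip1, known to be induced by p53), the direction was opposite to that of Cdkn1b. Cdkn1a was at 165, 169 and 167 CPM in WT and at 148, 145 and 126 CPM in cKO, with no overlap. The log2 fold change of Cdkn1a was -0.26 (standard error 0.057, edgeR adjusted p = 0.00212).

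Over all 15376 genes tested, edgeR called 43.7% and DESeq2 called 5535 genes. Of the INK4 genes, 3 were tested and 0 passed in edgeR or DESeq2, with 0 at an unadjusted p under 0.05 in either. Cdkn2c (ENSMUSG00000028551.14; minus strand of chromosome 4, 109660876 to 109667189), which encodes p18Ink4c, had the lowest p of these: it was at 17.96, 15.7 and 15.7 CPM in WT and at 15.1, 15.1 and 12.9 CPM in cKO. The groups did not overlap, but the gap was small, and the log2 fold change of -0.19 (95% interval -0.39 to 0.011) had an edgeR adjusted p of 0.117. Cdkn2d (ENSMUSG00000096472.2; minus strand of chromosome 9, 21288410 to 21291407), which encodes p19Ink4d, was at 10.6, 9.09 and 8.78 CPM in WT and at 8.88, 8.22 and 9.72 CPM in cKO. The groups overlapped, with a log2 fold change of -0.09 (95% interval -0.33 to 0.15, edgeR adjusted p = 0.55). With 1 library left out it ran from -0.0059 (without WT replicate 1) to -0.15 (without cKO replicate 3), and that of Cdkn2c from -0.12 (without cKO replicate 3) to -0.23 (without cKO replicate 1).

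Cdkn2b and Cdkn2a lie side by side on chromosome 4 and encode p15Ink4b and, from separate starts, p16Ink4a and p19Arf; both genes are known for their rise in senescent cells. Cdkn2b (ENSMUSG00000073802.4; minus strand, 89306289 to 89311032) was at 3.60, 3.31 and 2.34 CPM in WT and at 2.98, 3.24 and 3.54 CPM in cKO, with overlap. The log2 fold change was 0.07 (95% interval -0.33 to 0.47, edgeR adjusted p = 0.795), and without WT replicate 3 it was -0.09. The WT libraries held 1, 4 and 2 counts of Cdkn2a (ENSMUSG00000044303.6; minus strand, 89274471 to 89294653) and the cKO libraries 4, 1 and 0, with its transcripts counted together. These values, from 0 to 0.225 CPM, lay about the floor in both groups, so no difference could be detected at this depth; without a filter on low counts the edgeR adjusted p was 0.803.

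Compared per kb of summed exon length, the WT levels ran from Ccnd2 (14.6 ± 0.971 CPM per kb) through Ccnd1 (10.3 ± 0.333), Ccnd3 (9.10 ± 0.436), Cdkn1b (7.75 ± 0.231), Cdkn2c (6.13 ± 0.486), Cdkn2d (6.04 ± 0.632) and Cdkn2b (2.22 ± 0.475) to Cdkn1c (0.710 ± 0.232) and Cdkn2a (0.111 ± 0.0667; SD, n = 3 for each). Cdkn2c and Cdkn2d overlapped and could not be ordered, and the other neighbours in this order did not overlap. In cKO, Cdkn1b at 8.997 ± 0.343 CPM per kb stood above Ccnd3 at 7.40 ± 0.0380 CPM per kb (SD, n = 3). Per kb of the longest principal transcript that exchange was not seen, as Ccnd3 led with 37.8 ± 1.81 CPM per kb in WT and 30.7 ± 0.158 CPM per kb in cKO (SD, n = 3).

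**Figure D3:**
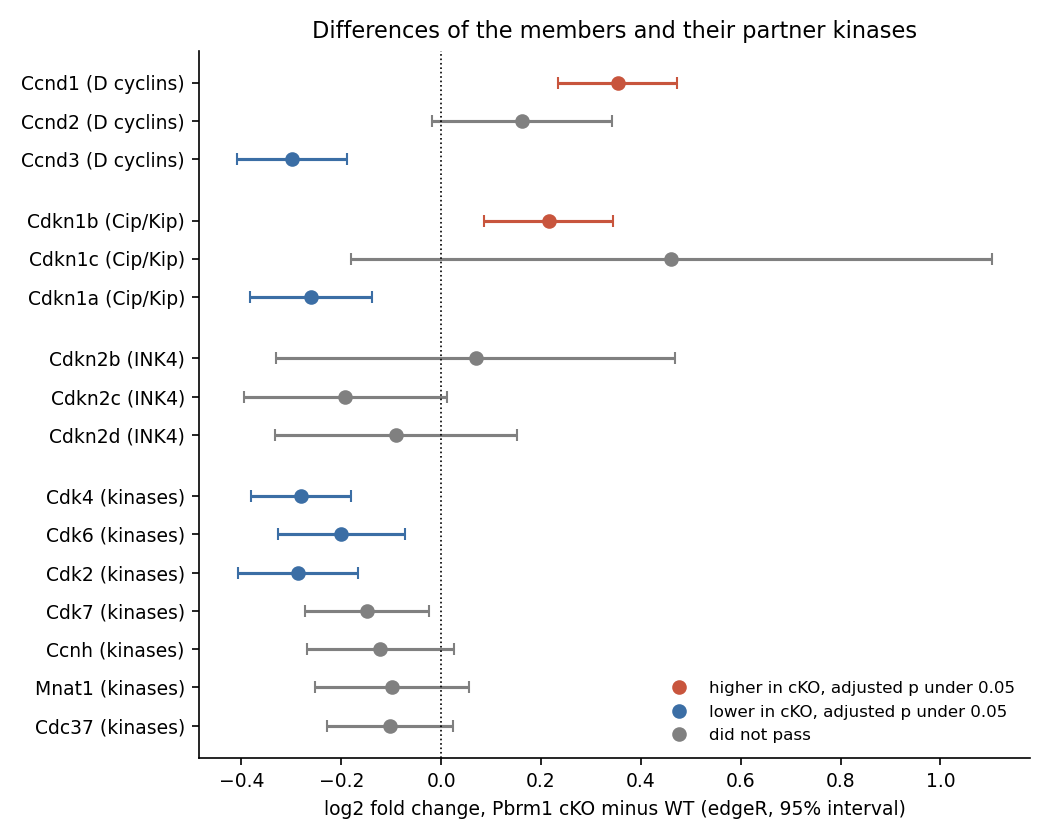
Log2 fold change (x axis, Pbrm1 cKO minus WT) with its 95% interval from edgeR for the 8 tested members, Cdkn1a and 7 partner kinases and activators; red is higher and blue lower in cKO at an adjusted p under 0.05. Ccnd1 at 0.35 and Ccnd3 at -0.30 stand on opposite sides of 0, and Cdk4, Cdk6 and Cdk2 are lower.

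The kinases that the members bind were examined next. Of 7 partner kinases and activators, 3 were lower and 0 higher, in edgeR and in DESeq2, with a median log2 fold change of -0.15. The share called by edgeR, 42.9%, was near the 43.7% of all genes tested. Cdk4, the main partner of the D cyclins, was at 369, 350 and 381 CPM in WT and at 296, 298 and 313 CPM in cKO, with no overlap (log2 fold change -0.28, SE 0.046, edgeR adjusted p = 0.000266). Cdk6, the second partner, was at 44.4, 41.3 and 43.3 CPM in WT and at 38.9, 36.8 and 36.5 CPM in cKO (log2 fold change -0.20, edgeR adjusted p = 0.0139). Cdk2, the partner of cyclins E and A, was at 57.0, 53.6 and 57.2 CPM in WT and at 44.2, 47.4 and 45.9 CPM in cKO (log2 fold change -0.29, edgeR adjusted p = 0.000949). The other 4 did not pass. The log2 fold changes were -0.15 for Cdk7, -0.12 for Ccnh and -0.10 for Mnat1, which form the kinase that activates the others, and -0.10 for Cdc37, the chaperone that loads Cdk4 (edgeR adjusted p = 0.0528, 0.168, 0.291 and 0.18).

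The genes on which the cyclin D pathway acts were examined as 2 lists. Of 13 pocket proteins, E2F and DP factors, 7 were lower and 2 higher in edgeR, and 6 and 2 in DESeq2. The share called by edgeR was 69.2%, beside 43.7% of all genes tested, and the median difference was -0.23 on the log2 scale. Rbl2, the pocket protein p130 of resting cells, was at 18.6, 17.5 and 18.9 CPM in WT and at 29.2, 25.8 and 29.5 CPM in cKO (log2 fold change 0.62, edgeR adjusted p = 2.53e-05). The log2 fold changes of E2f7, a repressor, and E2f1, an activator, were -0.61 and -0.43 (edgeR adjusted p = 8.87e-05 and 0.000595). E2f2 was lower by a log2 fold change of -0.46 in edgeR (adjusted p = 0.047), but not in DESeq2 (adjusted p = 0.121). E2f6, a repressor and the other gene that was higher, gave 0.22 (edgeR adjusted p = 0.00622), and was named after its value was seen, as was Rb1. Rb1 itself gave -0.15 on the log2 scale (edgeR adjusted p = 0.177).

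Of 15 G1/S genes known to be driven by E2F, 13 were lower and 0 higher, in edgeR and DESeq2 alike. The share called by edgeR was 86.7%, beside 43.7% of all genes tested, and the median log2 fold change was -0.31. The largest changes were those of Mybl2 (log2 fold change -0.70), Cdc25a, which activates Cdk2 (-0.59), Ccna2, cyclin A2 (-0.55), and Tk1, thymidine kinase (-0.42), each with an edgeR adjusted p of 0.000447 or less. Pcna, at 0.03, and Cdt1, at -0.12, named after their values were seen, did not pass (edgeR adjusted p = 0.594 and 0.14). All 6 proliferation markers were lower. Mki67 was at 268, 252 and 248 CPM in WT and at 149, 154 and 138 CPM in cKO (log2 fold change -0.80, edgeR adjusted p = 6.94e-08), and Plk1, Ccnb1 and Birc5 gave -0.98, -0.69 and -0.62.

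Set beside the members, Ccnd1 and Cdkn1b lay above the range of WT in every cKO library. Ccnd3, Cdkn1a, the called kinases Cdk4, Cdk6 and Cdk2 and the 13 called G1/S genes lay below it. So did the member Cdkn2c, which did not pass the test. Pcna and Cdt1 overlapped the WT range. The groups did not overlap in 53.5% of all genes tested. The 13 genes were picked by their call, so their place below WT adds nothing to it.

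**Figure D4:**
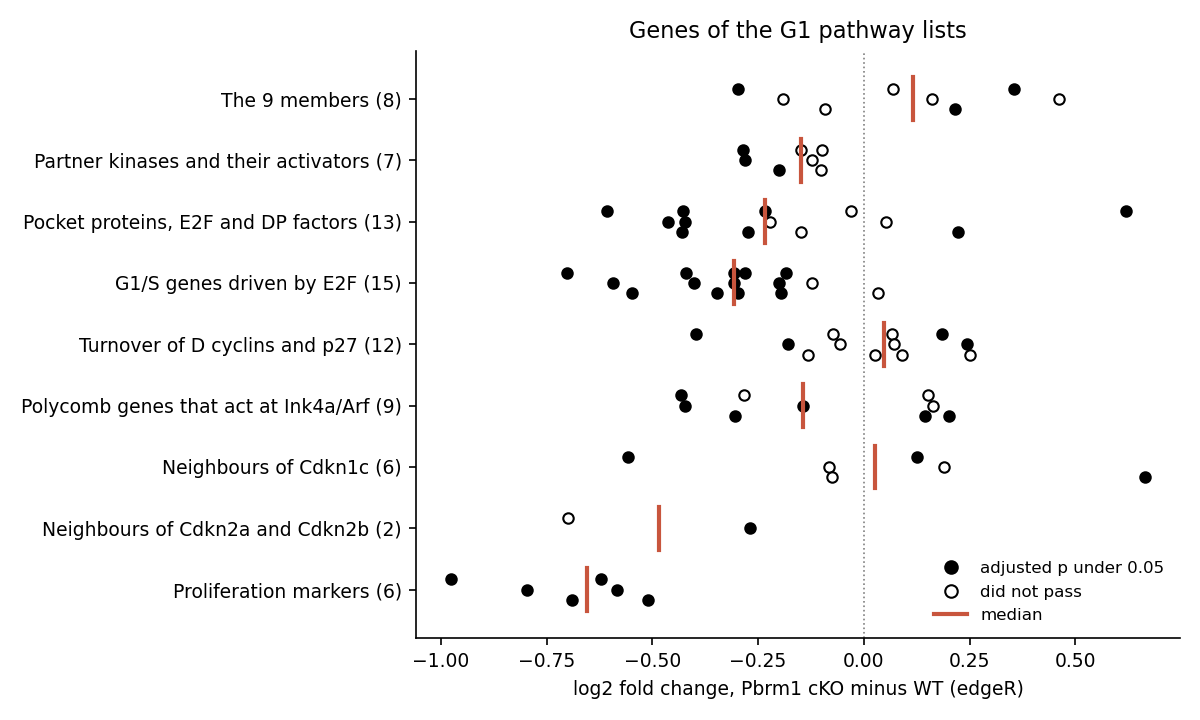
Log2 fold change (x axis, Pbrm1 cKO minus WT, edgeR) of each tested gene in 9 lists, with the number of tested genes in brackets; filled points passed at an adjusted p under 0.05 and the red bar is the median of the list. The members lie on both sides of 0 around a median of 0.12, while 13 of 15 G1/S genes and all 6 proliferation markers are lower.

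Cyclin D and p27 are also set by protein breakdown, and the genes of that machinery were split. Of 12 tested, 2 were higher and 2 lower (33.3% called, beside 43.7% of all genes tested), and DESeq2 called 1 in each direction. Skp2, the F-box protein that marks p27Kip1 for breakdown, was at 36.3, 39.8 and 42.6 CPM in WT and at 30.3, 30.8 and 29.1 CPM in cKO (log2 fold change -0.40, edgeR adjusted p = 0.000407). Cryab, which works with Fbxo4 on cyclin D1, was higher (log2 fold change 0.24, edgeR adjusted p = 0.000313). Ubac1, a subunit of the cytoplasmic ligase for p27Kip1, gave 0.19, and Ambra1, which directs the breakdown of D cyclins, gave -0.18. These last 2 passed in edgeR (adjusted p = 0.017 and 0.0344) and not in DESeq2 (adjusted p = 0.0638 and 0.0684).

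The Ink4a/Arf locus is a classical target of Polycomb repression. Of 9 Polycomb genes, 4 were lower and 2 higher in edgeR, and 3 and 1 in DESeq2. The share called by edgeR was 66.7%, beside 43.7% of all genes tested. Ezh2, the methyltransferase, was at 36.9, 40.2 and 35.5 CPM in WT and at 27.6, 29.7 and 26.2 CPM in cKO (log2 fold change -0.43, edgeR adjusted p = 0.000255). Suz12, its partner, gave -0.31, and Cbx2, a reader of the mark, gave -0.42, while Bmi1, known as a repressor of this locus, gave 0.20 (edgeR adjusted p = 0.00102, 0.00753 and 0.00958). The other 2 calls, Eed at -0.14 and Rnf2 at 0.15, named after their values were seen, passed in edgeR (adjusted p = 0.0392 and 0.0315) and not in DESeq2 (adjusted p = 0.104 and 0.101). Cdkn2a stayed at the floor in both groups beside these values. Of the genes next to it, Mtap was at 150, 151 and 150 CPM in WT and at 117, 138 and 119 CPM in cKO (log2 fold change -0.27, edgeR adjusted p = 0.00188). Dmrta1 gave -0.70 (edgeR adjusted p = 0.121) at 0.424 to 1.00 CPM, and Gm12610 held at most 1 count and was not tested.

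In the imprinted cluster around Cdkn1c, 3 of 6 tested genes (50%) passed in edgeR, beside 43.7% of all genes tested. In DESeq2 0 passed, and 2 had an unadjusted p under 0.05. Kcnq1ot1, the antisense RNA that silences the paternal copies, was at 88.0, 89.5 and 59.0 CPM in WT and at 48.5, 68.6 and 43.0 CPM in cKO. The groups overlapped, with a log2 fold change of -0.56 (edgeR adjusted p = 0.0118, DESeq2 adjusted p = 0.0994). Slc22a18, a transporter, gave 0.66 at 0.886 to 2.31 CPM (edgeR adjusted p = 0.0472, DESeq2 adjusted p = 0.13), and Cd81, a membrane protein, gave 0.13 (0.0305 and 0.0565). Kcnq1 (0.19), Nap1l4 (-0.07) and Tssc4 (-0.08) did not pass (edgeR adjusted p = 0.643, 0.171 and 0.289). Phlda2 and Ascl2 were not tested, at 0.129 to 0.468 CPM and 0.1604 to 0.562 CPM.

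Markers of other cell types moved with the groups, and edgeR called 43.7% of all genes tested. Of 8 fibroblast markers, 6 were higher and 1 lower, and their summed level was 1270 to 1290 CPM in WT and 2180 to 2350 CPM in cKO. Col15a1, Cd34, Dcn and Pdgfra gave log2 fold changes of 1.39, 1.10, 0.92 and 0.82, and Dpt, named after its value was seen, gave -0.65. Of 8 smooth muscle markers, 6 were higher, led by Mylk (1.249), Des (1.21), Lmod1 (0.80) and Myh11 (0.74), and Smtn (-0.29), named after its value was seen, was lower. Cnn1 (-0.03), also named after its value was seen, did not pass (edgeR adjusted p = 0.73). Of 8 epithelial markers, 6 were higher, led by Epcam (1.07), Krt19 (0.79), Cdh1 (0.54) and Krt8 (0.18). DESeq2 called 5 higher. Ovgp1, named after its value was seen, passed in edgeR (adjusted p = 0.0441) and not in DESeq2 (adjusted p = 0.0638), and its groups overlapped. Foxj1 (-0.27) and Pax8 (-0.125), named after their values were seen, did not pass (edgeR adjusted p = 0.153 and 0.307). The epithelial sums were 878 to 954 CPM in WT and 1090 to 1220 CPM in cKO. Of 6 tested leukocyte markers, 5 were higher, with Ptprc, Csf1r, Cd68 and Adgre1 at 1.02, 0.59, 0.52 and 0.46, and sums over all 8 of 648 to 702 CPM in WT and 898 to 970 CPM in cKO. Cd14 (-0.03), named after its value was seen, did not pass (edgeR adjusted p = 0.799). The lymphocyte genes Cd3e and Cd79a were not tested, at 0.296 CPM or less.

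Of 8 endothelial markers, 2 were lower (Kdr, -0.87, and Eng, -0.31) and 1 higher (Vwf, 1.71). The share called, 37.5%, was near the 43.7% of all genes tested, and the median log2 fold change was -0.035. Pecam1, Emcn, Tek, Cdh5 and Tie1, named after their values were seen, did not pass (0.13, -0.13, -0.04, -0.03 and -0.03). The endothelial sums were 519 to 568 CPM in WT and 419 to 455 CPM in cKO. Mean levels in WT and cKO were 182 and 99.4 CPM for Kdr and 191 and 154 CPM for Eng. Of 6 mesothelial markers, 3 were lower (Upk1b, Msln and Lrrn4, at -0.86, -0.82 and -0.37), with sums of 368 to 386 CPM in WT and 300 to 318 CPM in cKO. The 4 erythroid genes were low, with sums of 1.83 to 1.93 CPM in WT and 0.0643 to 0.281 CPM in cKO, and 1 of them was tested (Hbb-bs, log2 fold change -3.57). Except for those said not to pass, each marker named with a log2 fold change passed with an edgeR adjusted p of 0.0144 or less. The part of the mix of cells in the values of Ccnd1, Ccnd3 and Cdkn1b was not tested.

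For the members with the largest called rise and fall, the genes with the most similar pattern were found among 10429 protein-coding genes at 5 CPM or more. Over the 6 libraries, log2 CPM of Ccnd1 had a Pearson r of 0.999 with Lrp6, a Wnt co-receptor, 0.999 with Zadh2, and 0.995 with Ppp1r15a. These genes differed in size, with log2 fold changes of 0.28, 0.84 and 0.33. Ccnd3 had an r of 0.999 with Baiap2l1, 0.995 with Ighmbp2 and 0.995 with Rmdn3, whose log2 fold changes were -0.57, -0.35 and -0.34. Such values come easily when the points are 2 separate groups that share libraries and scaling: 485 genes passed an r of 0.95 with Ccnd1 and 496 with Ccnd3. They are a description and no test was made.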

How the data were processed

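RNA-Seq of 6 libraries (3 WT, 3 Pbrm1 cKO) was analysed from 1 table of read counts per gene deposited by the authors. Per the file headers, featureCounts 1.6.4 counted reads over exons of GENCODE M18 in reverse-stranded mode with other options at their defaults, which discard multi-mapping reads and reads shared by genes of 1 strand. The submitters' processing notes name cutadapt, HISAT2 and GRCm38.p5. Per the labels, libraries were primed with random and poly(T) primers, so counts follow transcript length. The exon length of each gene, also deposited by the authors, was used for CPM per kb. Columns of per-sample values left unused numbered 0. Symbols came from GENCODE M21 on the same build and covered 54079 of 54232 identifiers.

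The quasi-likelihood F-test of edgeR 4.0.16 (R 4.3.3) was run two-sided on the counts after TMM scaling and filterByExpr, over 15376 genes, with Benjamini-Hochberg adjustment over all of them and a threshold of 0.05. Groups follow the labels. CPM values use the same scaling. The SE is the absolute log2 fold change divided by the square root of F, and intervals cover 95%. D cyclin sums and shares were compared by exact permutation over libraries. Alternatives were DESeq2 1.42.0, limma-voom (limma 3.58.1), 3 other scalings, 2 other filters, a replicate block, and fits that each omit 1 library. The test was also tested on simulated counts. It called 43 of 68 genes given a 1.25-fold change, 59 of 66 at 1.5-fold and 66 of 66 at 2-fold, with 14 false calls. With no change set, 1 gene was called. The changed genes were all above a limit on counts, so genes near the floor were not covered. Changes of about 1.25-fold or less can thus be missed. Each library counted as 1 replicate. Within each group every pair of libraries exceeded sampling noise in a chi-square comparison (1.31 to 1.6 per gene). That cannot tell separate animals from separate preparations of a pool. The common coefficient of variation between libraries beyond counting error was 5.32%. Sequence copies were sought with BLAST 2.17.0 at 95% identity over at least 200 bases, and motifs by exact match on both strands.

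The members, gene lists and tests were chosen with earlier results of these data known. Named genes were Pbrm1, Cdkn1a, the 9 members, all genes of the kinase list and of both neighbour lists, up to 4 called genes with the largest change of each other list, Mki67, and the 3 genes most correlated with the called members of largest rise and fall.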

Additional observations from a re-analysis of the deposited data

How the results depend on the processing

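Ccnd1 and Ccnd3 kept their direction and their call under all 14 alternatives, with log2 fold changes of 0.33 to 0.39 and -0.33 to -0.26. Cdkn1b kept its direction in all 14 and its call in 13; leaving out 1 library at a time gave 0.19 to 0.25, the lowest without WT replicate 2. Ccnd2 passed in 2 of 14. With no filter on low counts it gave 0.15, with an SE of 0.053 in place of 0.084. Without cKO replicate 3 it gave 0.27, within a range of 0.072 to 0.27 over the libraries left out. Cdkn2b changed sign without WT replicate 3 (range -0.093 to 0.19). Between 2 members (without WT replicate 2) and 4 members (without cKO replicate 3) were called, and DESeq2 called 3. The number of called genes in the table was 6723, with 5535 in DESeq2 and 5532 to 7054 with 1 library left out. Deviations of libraries with the same replicate number correlated at -0.03, 0.04 and 0.11. With 3 libraries a group, these values cannot settle whether the numbers pair the libraries. With the replicate block 6908 genes were called, 6617 of them shared, and no member gained or lost its call. The SE of Ccnd2 was 0.067 with the block and 0.084 without it. With no division by length the share of Ccnd1 rose by 3.92 percentage points. With the longest principal transcript, added after the data were seen, the difference of the total was -1.27% of WT in place of 8.45%, and the share of Ccnd2 differed by 3.82 points. The length is the only thing that differs there. Per kb of the summed exon length, leaving out 1 library gave 4.99 to 13.3% for the total, 4.75 to 6.13 points for the share of Ccnd1 and -0.12 to 2.77 points for that of Ccnd2. For Ccnd2, Cdkn1b and Cdkn2b the cause was not tested. Other scalings moved the median of all genes by at most 0.017 (log2). Depth limits Cdkn1c, Cdkn2b and above all Cdkn2a, for which only the fit with no filter gave a value. With 3 libraries a group, the exact tests cannot fall below 0.1.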

Other observations

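The nearest tested genes that do not overlap the called members did not all move with them. They were picked for position after the values of the members were seen. Over all genes tested, edgeR called 43.7%. Left of Ccnd1, Bc1 had means of 68.4 ± 2.04 (WT) and 57.9 ± 0.0694 (cKO) CPM (SD, n = 3), a log2 fold change of -0.24 (edgeR adjusted p = 0.00148), and the chloride channel gene Ano1 gave -0.11 (adjusted p = 0.277). To the right, Tpcn2, a lysosomal channel, was at 13.1 ± 1.34 and 17.0 ± 1.38 CPM (SD, n = 3; log2 fold change 0.37, edgeR adjusted p = 0.00731) and Mrgprf at 4.74 ± 0.996 and 11.7 ± 1.13 CPM (SD, n = 3; log2 fold change 1.29, edgeR adjusted p = 9.11e-06). These 4 genes lie 15.3, 178, 247 and 361 kb from Ccnd1. LTO1, which overlaps Ccnd1, gave 0.22 (edgeR adjusted p = 0.0648). Beside Ccnd3, Taf8, AI661453, Med20 and Usp49 gave log2 fold changes of -0.0036, 0.14, -0.0097 and -0.03, and 0 of 4 passed. Bysl, which overlaps Ccnd3 and is not among these 4, was lower as Ccnd3 was (log2 fold change -0.27, edgeR adjusted p = 0.000612). Beside Cdkn1b 1 of 4 passed: Gpr19 was higher, at 1.59 ± 0.236 and 2.56 ± 0.774 CPM (SD, n = 3; log2 fold change 0.70, edgeR adjusted p = 0.0356), while Lockd, which lies 3.58 kb downstream, gave 0.28 (adjusted p = 0.407) at 1.12 and 1.38 CPM. The other 2, 2810454H06Rik and Apold1, gave 0.73 and 0.11 (edgeR adjusted p = 0.13 and 0.633).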
